A study of Mus musculus with 9 samples.

Results

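The transcripts of 10 genes that handle superoxide, hydrogen peroxide or lipid peroxides were followed in 9 RNA-seq libraries of MC38 cells. They are the superoxide dismutases Sod1 and Sod2, catalase (Cat), the glutathione peroxidases Gpx1 and Gpx4, Aifm2 (the gene of FSP1), Gch1, Acsl4, Lpcat3 and Ptgs2. They were taken by symbol from a table of 16509 genes, each was listed once, and all 10 were among the 11949 genes that passed the filter on low counts. MC38 is an established mouse colon adenocarcinoma line, so every library comes from 1 cell line. The 3 groups of 3 libraries were Ctrl cells, cells given Cu-Cys, a copolymer of copper and cystine, and cells given Cadict. Cadict carries copper and cystine together with glucose oxidase and an EGFR-binding peptide. The Ctrl treatment is DMSO in the labels and PBS in the study's figure legends, and which of them was used cannot be told. Glucose oxidase makes hydrogen peroxide from glucose. The Cu-Cys group has copper and cystine but neither the enzyme nor the peptide, so the design compares the full nanodrug with a control and with its copper-cystine core. The study reports only marginal uptake by MC38 cells of a carrier without the peptide. Effects of the enzyme, the peptide and the amount of copper taken up cannot be told apart in Cadict against Cu-Cys. The sources used here give no dose or time for these libraries. The study counts its n as biological replicates and its in vitro work as independently repeated, while the labels do not say how the 3 libraries of a group were cultured, and p-values measure the spread between these libraries.

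Superoxide dismutases turn superoxide into hydrogen peroxide, and catalase and the glutathione peroxidases remove it. Ferroptosis is a form of cell death in which iron-dependent peroxidation of phospholipids carrying polyunsaturated fatty acids runs out of control. ACSL4 and LPCAT3 place those fatty acids into phospholipids, GPX4 reduces the lipid peroxides, FSP1 regenerates reduced coenzyme Q as a radical trap, and GCH1 starts the synthesis of tetrahydrobiopterin, another radical trap. Ptgs2, which encodes the prostaglandin synthase COX-2, is widely used as a transcript marker of ferroptosis, although many other stimuli induce it. In the study a ferroptosis inhibitor did not lessen the killing of MC38 cells by Cadict, whereas inhibitors of cuproptosis and of disulfidptosis did. The antioxidant N-acetyl cysteine did not lessen it either, and higher doses went with more death. The study also reports lower glutathione with Cadict, and more reactive oxygen species with Cadict than with Cu-Cys. The transcripts followed here measure neither lipid peroxidation nor cell death.

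The libraries held 17905771 to 18293056 expected counts each. The 100 most abundant genes took 17.19% to 17.39% of the counts in Ctrl, 17.9% to 18.16% in Cu-Cys and 29.79% to 31.13% in Cadict libraries. Levels are given as CPM after TMM scaling (TMM CPM), which sets libraries to each other by the bulk of their genes and not by their totals. The factors were 0.6395 to 0.6654 in Cadict, 1.206 to 1.209 in Cu-Cys and 1.262 to 1.274 in Ctrl libraries. When each library was set to its total instead, the median log2 fold change of all genes between Cadict and Ctrl dropped by 0.955, from -0.125 to -1.08, so the changes of the 10 genes with Cadict against Ctrl are given below under both scalings. RNA per cell was not measured, so which scaling is closer to molecules per cell cannot be told apart. Of the cell type markers, Epcam was at 0 TPM in all Ctrl and Cu-Cys libraries and Vim stood at 1147 to 2982 TPM over all 9. The T cell list did not exceed 0.26 TPM and the endothelial list 1.3 TPM when summed, and of the macrophage genes Csf1r and Itgam did not exceed 0.03 TPM. The summed macrophage list was 13.9 to 16.2 TPM in Ctrl and 20.1 to 23.5 TPM in Cadict libraries, the epithelial list 4.22 to 6.24 TPM and 11.5 to 13.2 TPM, and the mesenchymal list 3300 to 3460 TPM and 1180 to 1270 TPM. Most genes were lower in TPM with Cadict. On the log2(TPM + 1) scale the median change of all tested genes against Ctrl was -1.13, and 54.2% were called lower. Of the macrophage genes, Cd68 was at 6.85 to 7.39 TPM in Ctrl and 14.79 to 18.17 TPM in Cadict libraries, and Cd14 at 6.2 to 7.54 TPM and 4.85 to 5.2 TPM. Of the epithelial genes, Krt19 was at 1.72 to 3.2 TPM and 8.36 to 9.31 TPM, and Cdh1 at 2.21 to 2.75 TPM and 2.39 to 2.92 TPM. The part of these shifts in the results was not tested.

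With Cadict, 5 of the 10 genes rose against Ctrl and none fell at the study's threshold, a fold change of at least 2 with an adjusted p of at most 0.001. The 5 were Ptgs2, Gch1, Sod1, Acsl4 and Gpx4, and the same 5 rose against Cu-Cys, by edgeR's quasi-likelihood test. Over all genes tested, 20.7% were called higher and 27.1% lower against Ctrl, and 18.6% and 23.6% against Cu-Cys. With the fold limit lifted and 0.05 as the bound on the adjusted p, 7 of the 10 were higher and 2, Cat and Lpcat3, lower against either group. The shares over all genes were 40.6% and 47.1% against Ctrl and 40.3% and 45.6% against Cu-Cys. At an unadjusted p under 0.05 the counts of the 10 were the same 7 and 2, and DESeq2 called the same 5 higher and 0 lower. The libraries of Cadict and Ctrl did not overlap for 6 higher and 2 lower genes of the 10 (40.3% and 47.3% of all genes), and those of Cadict and Cu-Cys for 7 and 2 (39.6% and 45.4%). Under library totals 2 of the 10, Ptgs2 and Gch1, stayed called higher, and Cat, Aifm2 and Lpcat3 were called lower. Over all genes that scaling gave 828 higher and 6148 lower calls in place of 2472 and 3235.

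With Cu-Cys, Ptgs2 was the 1 gene of the 10 called against Ctrl, where 0.167% of all genes were called higher and 1.47% lower. With 0.05 as the bound and no fold limit, Sod1, Sod2 and Ptgs2 were higher and Cat and Aifm2 lower, which is 3 and 2 of the 10 beside 22.6% and 22.4% of all genes. At an unadjusted p under 0.05 Gpx1 joined the lower ones, for 3 and 3, and DESeq2 called 1 higher and 0 lower. Against Ctrl, the libraries of the 2 groups did not overlap for 4 higher and 3 lower genes, beside 31.4% and 29.9% of all genes tested. The comparisons of Cadict with Ctrl and with Cu-Cys share the Cadict libraries, and those of Cadict and Cu-Cys with Ctrl share the Ctrl libraries, so they are not independent.

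**Figure D1:**
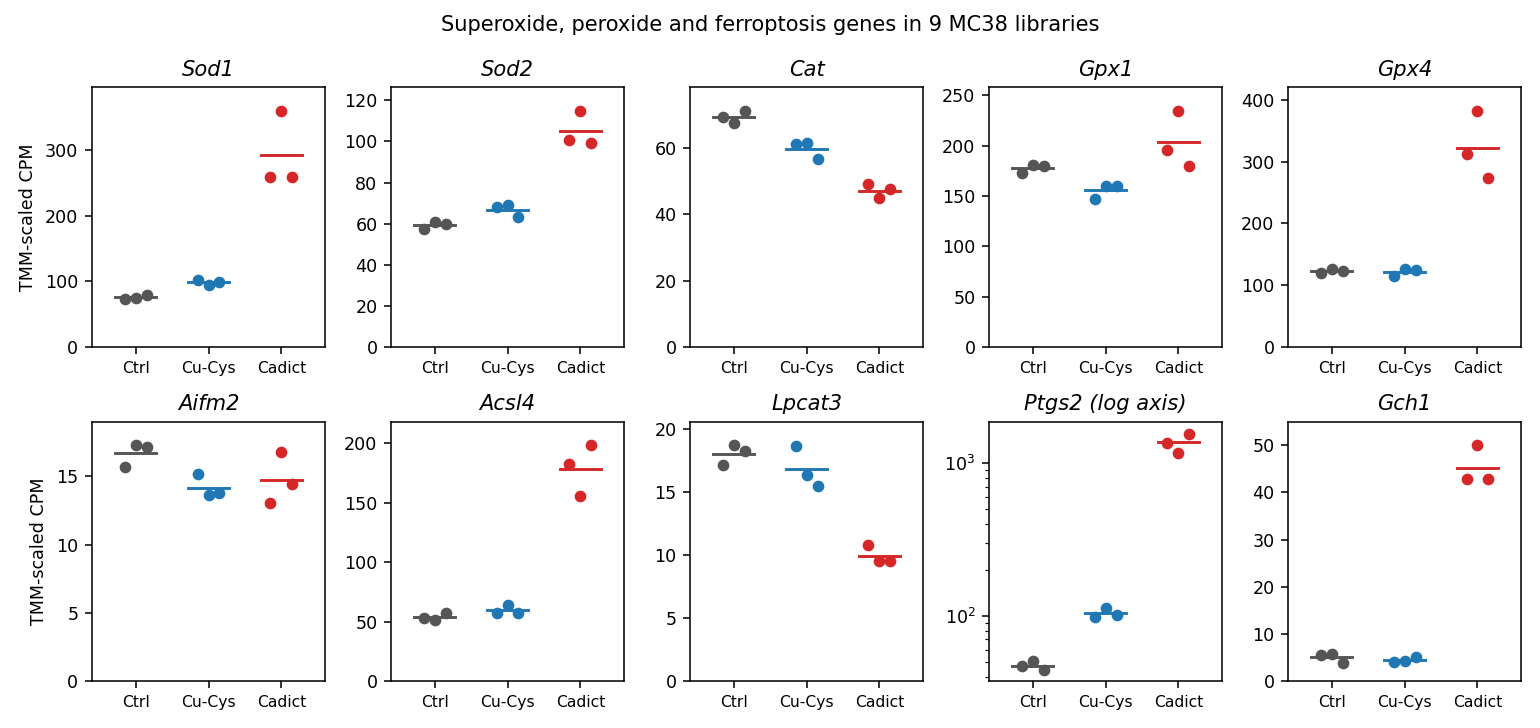
TMM-scaled CPM (vertical axes, linear from 0 except for Ptgs2, which has a log axis) of each of the 10 genes in 3 Ctrl, 3 Cu-Cys and 3 Cadict libraries; points are libraries in the order of their replicate number and lines are group means. Ptgs2 lies between 1172 and 1557 in Cadict libraries and between 44.39 and 50.35 in Ctrl libraries, and Gch1, Sod1, Acsl4 and Gpx4 also stand clear of both other groups with Cadict.

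Ptgs2, the gene of the inducible cyclooxygenase, moved most among the 10 in all 3 comparisons. Its TMM CPM was 47.06, 50.35 and 44.39 in the Ctrl libraries, 97.96, 113.1 and 101.8 in the Cu-Cys libraries and 1361, 1172 and 1557 in the Cadict libraries. The 3 groups were fully separated, with Ctrl lowest and Cadict highest. The rise with Cadict was 28.8-fold against Ctrl (log2 4.85, SE 0.10, edgeR adjusted p = 1.19e-15) and 13.1-fold against Cu-Cys (log2 3.71, SE 0.09, edgeR adjusted p = 1.45e-14). With Cu-Cys the rise was 2.21-fold (log2 1.14, 95% interval 0.94 to 1.34, edgeR adjusted p = 3.69e-07). Under library totals these log2 changes were 3.90, 2.83 and 1.07, and all 3 stayed called, whereas on the log2(TPM + 1) scale that with Cu-Cys was 0.97, just under the fold limit. On the per-length TPM scale Ptgs2 ranked 5622 among all genes in Ctrl, 3166 in Cu-Cys and 521 in Cadict cells. None of its annotated 50-base stretches was shared with another gene.

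Gch1, the first enzyme of tetrahydrobiopterin synthesis, rose with Cadict and not measurably with Cu-Cys. Its TMM CPM was 5.536, 5.801 and 3.924 in Ctrl, 4.199, 4.436 and 5.108 in Cu-Cys and 42.83, 49.94 and 42.82 in Cadict libraries. The Ctrl and Cu-Cys libraries overlapped, and every Cadict library was far above both. The change with Cadict was 8.87-fold against Ctrl (log2 3.15, SE 0.12, edgeR adjusted p = 6.56e-13) and 9.85-fold against Cu-Cys (log2 3.30, SE 0.12, edgeR adjusted p = 6.8e-13), and it stayed called under library totals, at log2 2.19 and 2.41. With Cu-Cys the log2 change was -0.15 with a 95% interval of -0.47 to 0.17 (edgeR adjusted p = 0.438). These low levels rest on 90 to 134 reads per library in Ctrl and 504 to 573 in Cadict, and a count of 0 would allow up to 0.130 to 0.262 TMM CPM in these libraries, counting error only.

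Sod1, the cytosolic copper-zinc superoxide dismutase, rose with Cadict at TMM scaling. It stood at 73.75, 73.94 and 79.05 TMM CPM in Ctrl, 102.5, 94.34 and 99.56 in Cu-Cys and 259.1, 360.1 and 258.8 in Cadict libraries. All 3 groups were separated, and replicate 2 was the highest Cadict library. The change was 3.87-fold against Ctrl (log2 1.95, SE 0.10, edgeR adjusted p = 3.72e-11) and 2.96-fold against Cu-Cys (log2 1.57, edgeR adjusted p = 5.49e-10). Under library totals it was 0.996 and 0.68 on the log2 scale, just under and under the fold limit. With Cu-Cys it was 1.31-fold higher (log2 0.39, 95% interval 0.17 to 0.60, edgeR adjusted p = 0.0061), short of the fold limit.

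Sod2, the mitochondrial manganese enzyme, did not reach the fold limit, and its direction with Cadict depended on the scaling. Its TMM CPM was 57.4, 60.82 and 59.91 in Ctrl, 68.29, 69.1 and 63.16 in Cu-Cys and 100.6, 114.9 and 99.5 in Cadict libraries. The 3 groups did not overlap at TMM scaling. Under library totals both treated groups overlapped with Ctrl, and the Cadict libraries lay below the Cu-Cys libraries. Against Ctrl the log2 change with Cadict was 0.82 at TMM scaling (SE 0.06, edgeR adjusted p = 4.98e-09) and -0.13 under library totals. With Cu-Cys it was 0.17 (edgeR adjusted p = 0.0375). Of the 50-base stretches annotated for Sod2, 21.0% also occur in other genes, a share of stretches and not of reads. The expected counts of Sod2 were whole numbers in all 9 libraries, and whether reads of those genes were counted to it was not tested.

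The enzymes that remove hydrogen peroxide differed from each other. Cat stood at 69.34, 67.66 and 71.25 TMM CPM in Ctrl, 61.19, 61.46 and 56.69 in Cu-Cys and 49.11, 44.97 and 47.52 in Cadict libraries. The order was the reverse of that of Sod1, with Ctrl highest, Cadict lowest and no overlap between groups. Its log2 change was -0.56 with Cadict (SE 0.06, edgeR adjusted p = 2.17e-07) and -0.22 with Cu-Cys (SE 0.05, edgeR adjusted p = 0.00505), neither past the fold limit at TMM scaling, and -1.51 with Cadict under library totals. Catalase works in peroxisomes, whereas GPX1 is the abundant cytosolic glutathione peroxidase.

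Gpx1 stood at 173.1, 180.9 and 179.4 TMM CPM in Ctrl, 147.2, 160.3 and 159.6 in Cu-Cys and 195.3, 234.6 and 179.7 in Cadict libraries. The Ctrl and Cadict libraries overlapped, and the Cu-Cys libraries lay below both. Its log2 change with Cadict against Ctrl was 0.19 (95% interval 0.03 to 0.36, edgeR adjusted p = 0.028) and turned to -0.76 under library totals. Against Cu-Cys it was 0.38 (edgeR adjusted p = 0.000241) and turned to -0.50. With Cu-Cys against Ctrl it was -0.19 (95% interval -0.35 to -0.03, edgeR adjusted p = 0.0509).

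Among the defences against lipid peroxides, Gpx4 was called higher with Cadict and Aifm2 was not called. Gpx4 stood at 120.2, 126.7 and 123.4 TMM CPM in Ctrl, 114.8, 126.7 and 124.4 in Cu-Cys and 312.0, 382.0 and 273.6 in Cadict libraries. Ctrl and Cu-Cys overlapped and Cadict was above both. The change with Cadict was 2.61-fold against Ctrl (log2 1.39, SE 0.09, edgeR adjusted p = 5.65e-10) and 2.64-fold against Cu-Cys (log2 1.40, SE 0.09, edgeR adjusted p = 5.91e-10). It was 0.43 and 0.52 on the log2 scale under library totals and 0.05 against Ctrl on the log2(TPM + 1) scale (limma adjusted p = 0.47), none of which reached the fold limit. With Cu-Cys the log2 change was -0.02 with a 95% interval of -0.21 to 0.17 (edgeR adjusted p = 0.899). Of the 50-base stretches annotated for Gpx4, 34.7% also occur in another gene model, Gpx4-ps2 among them. That is a share of stretches and not of reads. The expected counts of Gpx4 were whole numbers in all 9 libraries, and whether reads of those models were counted to it was not tested.

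Aifm2 stood at 15.66, 17.23 and 17.09 TMM CPM in Ctrl, 15.13, 13.58 and 13.77 in Cu-Cys and 13.0, 16.73 and 14.44 in Cadict libraries. Every Cu-Cys library was below every Ctrl library, whereas the Cadict libraries spanned both groups. With Cu-Cys the log2 change was -0.23 (SE 0.09, edgeR adjusted p = 0.0384). With Cadict it was -0.18 with a 95% interval of -0.38 to 0.02 (edgeR adjusted p = 0.0888) at TMM scaling and -1.13 under library totals, where it was called lower.

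The enzymes that load polyunsaturated fatty acids moved apart. Acsl4, which activates arachidonic and adrenic acid as coenzyme A esters, stood at 53.2, 51.95 and 57.42 TMM CPM in Ctrl, 57.68, 64.34 and 57.78 in Cu-Cys and 182.6, 155.7 and 198.2 in Cadict libraries. At TMM scaling each Cadict library was above all of the other 6, and replicate 2 was the lowest of the 3. The change with Cadict was 3.3-fold against Ctrl (log2 1.72, SE 0.08, edgeR adjusted p = 8.86e-12) and 2.98-fold against Cu-Cys (log2 1.58, SE 0.08, edgeR adjusted p = 3.1e-11), and 0.77 and 0.69 on the log2 scale under library totals, under the fold limit. With Cu-Cys the log2 change was 0.15 (95% interval -0.03 to 0.32, edgeR adjusted p = 0.154). On the TPM scale Acsl4 in Cadict replicate 2, at 25.81, was below Cu-Cys replicate 2, at 26.25. Its log2(TPM + 1) change with Cadict against Ctrl was 0.40 (limma adjusted p = 0.0073).

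Lpcat3, which transfers these acyl groups onto lysophospholipids, stood at 17.13, 18.66 and 18.23 TMM CPM in Ctrl, 18.64, 16.33 and 15.46 in Cu-Cys and 10.79, 9.5 and 9.488 in Cadict libraries. The Cadict libraries were below all others, and Ctrl and Cu-Cys overlapped. Its log2 change with Cadict was -0.86 against Ctrl (SE 0.10, edgeR adjusted p = 5.94e-07) and -0.76 against Cu-Cys (SE 0.10, edgeR adjusted p = 3.06e-06), short of the fold limit. Under library totals it was -1.81 and -1.64, and both were called lower. Of the annotated exon bases of Lpcat3, 10.2% lie opposite those of Emg1 on the other strand, and whether the counting used strand is not given in the sources used here.

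**Figure D2:**
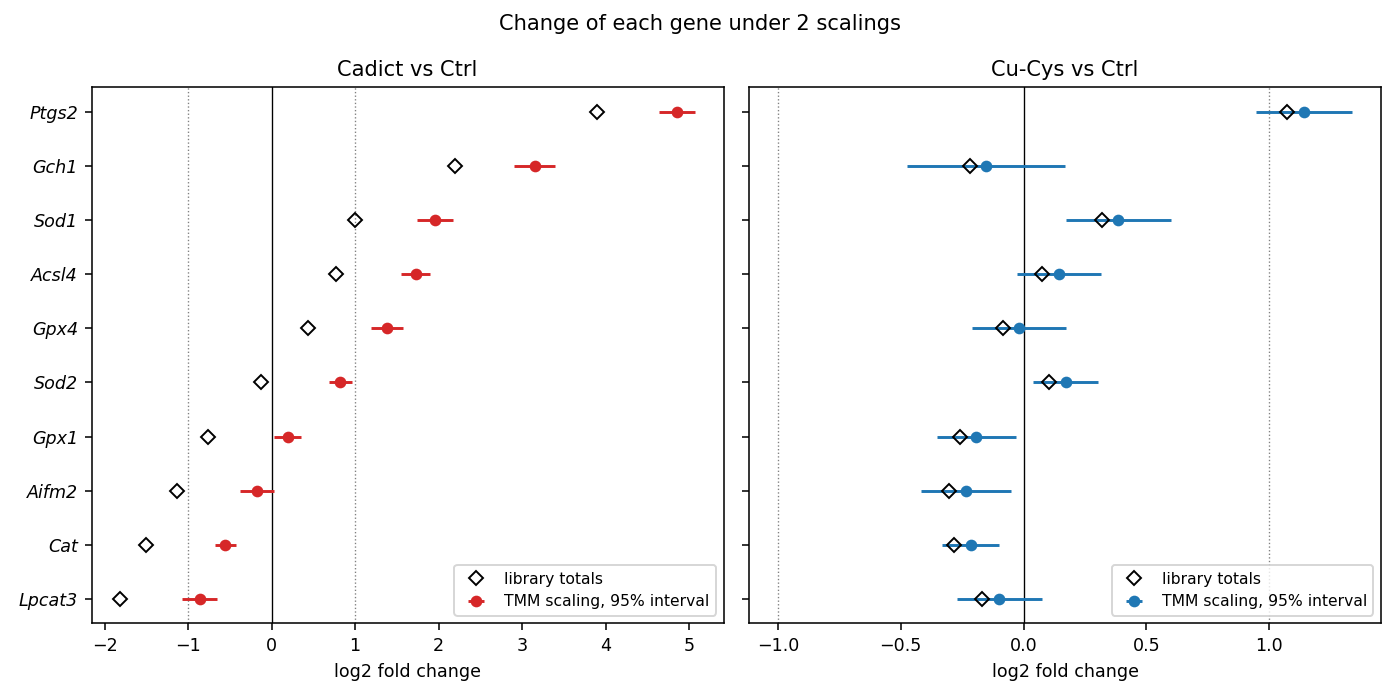
Log2 fold change (horizontal axes) of each of the 10 genes for Cadict against Ctrl (left) and Cu-Cys against Ctrl (right); filled circles with bars are the TMM-scaled fit with its 95% interval, open diamonds are the fit under library totals, and dotted lines mark a 2-fold change. With Cadict the diamonds lie to the left of the circles throughout, Sod2 and Gpx1 cross 0, and the order from Lpcat3 at -0.86 to Ptgs2 at 4.85 is the same under both scalings.

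Ratios of 2 genes within a library do not depend on how libraries are scaled to each other. They were taken on the per-length TPM scale for 6 pairs and carry no test, since 3 libraries against 3 cannot give a two-sided exact permutation p below 0.1. The ratio of Sod1 to Sod2 was 14.6 in Ctrl, 16.7 in Cu-Cys and 30.5 in Cadict cells, that is 3.87 ± 0.08, 4.07 ± 0.10 and 4.93 ± 0.17 on the log2 scale (SD, n = 3). The cytosolic dismutase therefore gained on the mitochondrial one with Cadict, with no overlap between groups. Sod1 has an effective length of 0.311 kb and Sod2 of 3.5 kb. Over all genes the change with Cadict went with gene length, as given below, and the part of length in these ratios was not tested. Gpx1 to Cat was 7.98 in Ctrl, 8.08 in Cu-Cys and 13.2 in Cadict cells.

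The balance between the fatty acid loading enzymes shifted more. Lpcat3 to Acsl4 was 0.731 in Ctrl, 0.611 in Cu-Cys and 0.123 in Cadict cells (log2 -0.45 ± 0.10, -0.71 ± 0.19 and -3.02 ± 0.22, SD, n = 3). Gch1 to Aifm2, which serve the tetrahydrobiopterin and coenzyme Q branches, turned from 0.25 in Ctrl and 0.262 in Cu-Cys to 2.03 in Cadict cells (log2 -1.998 ± 0.30, -1.93 ± 0.20 and 1.02 ± 0.04, SD, n = 3). Gch1 was thus below Aifm2 in all 6 Ctrl and Cu-Cys libraries and above it in all 3 Cadict libraries.

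Gpx4 gained on Aifm2, from 32.2 in Ctrl and 36.5 in Cu-Cys to 74.2 in Cadict cells. It did not gain on Acsl4: Gpx4 to Acsl4 was 22.8, 20.3 and 17.7, and the 3 Cadict libraries, at 4.08, 4.60 and 3.76 on the log2 scale (SD 0.42), spread across both other groups. Replicate 2 was the highest of them.

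**Figure D3:**
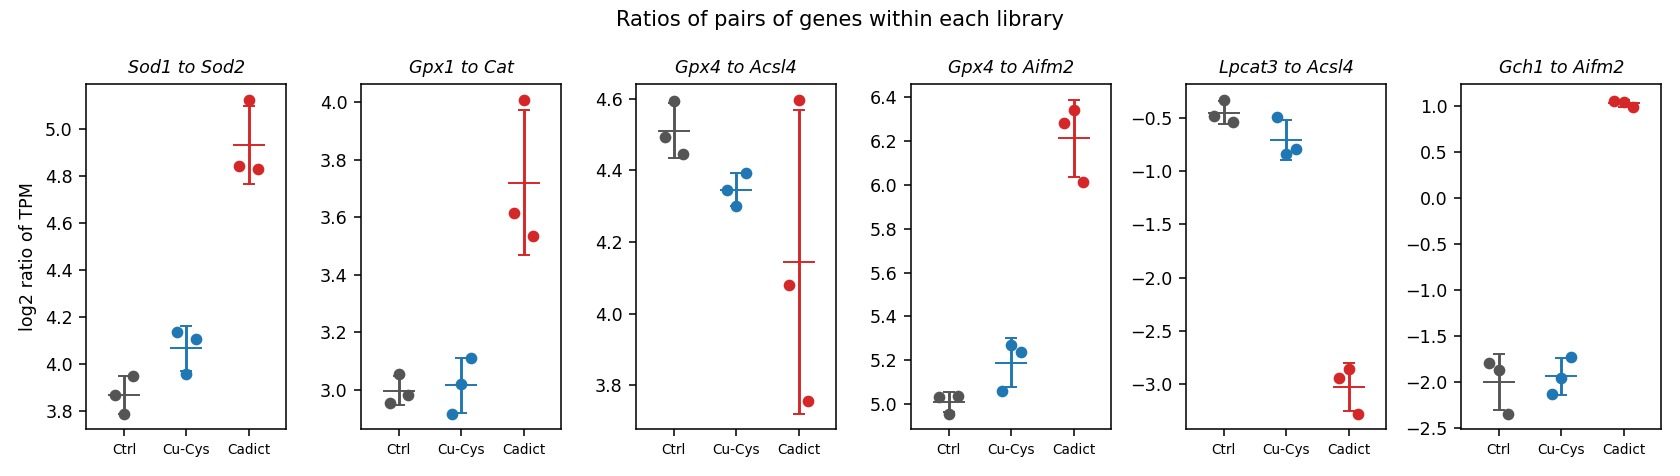
Log2 ratio of the TPM of 2 genes within each library (vertical axes, a separate scale in each panel) for 6 pairs; points are libraries, and the cross bars and whiskers are the mean ± SD of the 3 libraries of a group. Lpcat3 to Acsl4 falls to a mean of -3.02 and Gch1 to Aifm2 climbs to 1.02 in Cadict libraries, while for Gpx4 to Acsl4 the Cadict libraries spread across the ranges of both other groups.

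On the per-length TPM scale the order of the 10 genes differed between the groups, with Ptgs2 moving from rank 7 in Ctrl to 3 in Cadict cells and Cat from 4 to 7. In Ctrl cells Gpx4 led at 556.66 to 569.0 TPM, followed by Gpx1 and Sod1, whose ranges overlapped, then Cat, Sod2, Acsl4 and Ptgs2, which overlapped, Lpcat3 and Aifm2, which overlapped, and Gch1 at 3.38 to 5.03 TPM. In Cu-Cys cells Sod1 led at 587.19 to 659.02 TPM and Ptgs2, at 45.49 to 52.37 TPM, stood beside Cat with an overlapping range. In Cadict cells Sod1 led at 731.22 to 886.27 TPM and Ptgs2, at 219.85 to 353.47 TPM, overlapped with Gpx1 at 232.06 to 251.89 TPM. Gch1, the lowest of the 10 in both other groups, overlapped with Cat at 15.52 to 16.39 TPM, and Lpcat3 was now lowest at 3.57 to 4.51 TPM.

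Gene length moved with the changes and with 1 library. Over 11949 genes the log2 change with Cadict against Ctrl had a Spearman correlation of -0.205 with effective length, a description across genes that share libraries. The median of that change was 0.36 in the shortest tertile of genes, -0.294 in the middle tertile and -0.41 in the longest. For Cu-Cys against Ctrl the correlation was -0.197, with smaller medians of 0.0815, 0.00425 and -0.0525 in the same order. Sod1, Gpx4 and Gpx1 are in the shortest tertile, with effective lengths of 0.311, 0.471 and 0.717 kb. Sod2, Ptgs2 and Acsl4 are in the longest, with 3.5, 4.14 and 4.68 kb. The ratios of Sod1 to Sod2, Gpx1 to Cat and Gpx4 to Aifm2, which rose with Cadict, each set a gene of the shortest tertile over a longer gene. Gpx4 to Acsl4 and Lpcat3 to Acsl4 also each set a shorter gene over a longer one, and neither rose. These 10 genes and 6 pairs are too few to decide what part length had. Cadict replicate 2 differed from the other 2 Cadict libraries by length, with a Spearman correlation of -0.523 between its deviation and effective length. It was the highest Cadict library for 6 of the 10 genes, all 3 short ones included, and the lowest for Cat, Acsl4 and Ptgs2. Without it the 5 genes called against Ctrl stayed called, the log2 change of Gpx1 against Ctrl went from 0.19 to 0.08, and the part of length in the results was not tested.

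The promoter windows of the 10 genes were read for 13 short motifs. RefSeq gives a window from 250 bases before to 50 bases after each gene start (build GRCm38.p6), and all 10 genes had one, Gpx4 with 4 starts. The letters TGACG, the core shared by cAMP response elements and related sites of the CREB and ATF family, occurred on either strand in the windows of Sod1, Gpx4, Acsl4, Ptgs2 and Gch1, the 5 genes called higher with Cadict, and not in those of the other 5. This motif was singled out of the 13 after its matches were seen, it was in 20.8% of all 32851 windows and in 35.8% of the 9550 tested genes with a window, and Gpx4 had more windows in which it could occur. Windows matched 79.9% of the 11949 tested genes, under 80%, so a comparison of its share between called and other genes was void and is not given. The matches are shown as 30 bases on the gene's strand, written 5′ to 3′, with TGACG or its reverse complement in capitals. Since the motif was picked for its split of the 10 genes, that split is a description only, and a link to the calls was not tested.
Ptgs2, chr1:150100032-150100061, plus strand, match from +14: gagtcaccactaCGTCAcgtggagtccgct
Gch1, chr14:47189484-47189513, minus strand, match from -88: gggagagatccaTGACGcaagaggctccgg
Sod1, chr16:90220514-90220543, plus strand, match from -236: cgactcggccgaCGTCAcagttagaagaca
Acsl4, chrX:142390637-142390666, minus strand, match from -119: cctttttggcggTGACGtccttagtgagcg
Gpx4, chr10:80053521-80053550, plus strand, match from -32 of 1 start and -126 of another: accaataagagaCGTCAgtgggcgtgcccg
Gpx4, chr10:80053963-80053992, plus strand, match from -36 of a further start: cccggcctggtgCGTCAcagtcggcggcgc

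The full palindrome TGACGTCA was in 1.79% of all windows and in none of the 10 genes, and the same held for the AP-1 letters TGANTCA, in 7.81% of windows, and the C/EBP-ATF letters TGATGCAA or TGATGAAA, in 1.9%. The antioxidant response element core TGACNNNGC, in 12.4% of windows, was found in that of Sod1. The metal response element core TGCACNC or TGCGCNC, in 25.7% of windows, was found in that of Lpcat3. The kappa-B motif, in 8.46%, was found in those of Sod2, Cat, Gpx1 and Gch1, the heat shock letters GAANNTTC, in 7.86%, in that of Sod1, and TATAAA, in 13.6%, in those of Sod1 and Gch1. The GC box GGGCGG, in 35.7% of windows, was in 9 of the 10 genes and CCAAT, in 37.4%, in 6. All were searched on both strands.

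Ptgs2 and Gch1, the pair called higher with Cadict under every scaling that was run, are shown with the 250 bases before their starts. Capitals mark the C/EBP letters TTGCGCAA in Ptgs2, found in 0.183% of windows and in no other of the 10 genes, and TGACG in Gch1. The E-box CACGTG, in 7.15% of windows, was found in that of Ptgs2 alone among the 10, where it overlaps the TGACG match after the start.
Ptgs2, chr1:150099781-150100030, plus strand: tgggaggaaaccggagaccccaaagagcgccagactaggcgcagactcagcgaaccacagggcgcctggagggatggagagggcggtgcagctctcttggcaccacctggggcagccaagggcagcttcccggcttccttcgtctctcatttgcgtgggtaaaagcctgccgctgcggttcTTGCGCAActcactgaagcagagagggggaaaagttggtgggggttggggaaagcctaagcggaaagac
Gch1, chr14:47189414-47189663, minus strand: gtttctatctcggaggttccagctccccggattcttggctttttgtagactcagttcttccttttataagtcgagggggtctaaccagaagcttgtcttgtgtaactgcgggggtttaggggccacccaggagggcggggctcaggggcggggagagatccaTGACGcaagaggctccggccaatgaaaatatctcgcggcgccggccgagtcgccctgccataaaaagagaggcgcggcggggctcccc

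The surrounding pathways were read from 7 lists with 98 tested genes other than the 10. With Cadict against Ctrl 28 of them were called higher and 17 lower, beside 20.7% and 27.1% of all genes tested. With Cu-Cys 1 was called higher and 0 lower, beside 0.167% and 1.47% (37 and 18 at an unadjusted p under 0.05, and 1 and 0 by DESeq2). The calls in the single lists below stand beside these shares, and no list was tested as a set. Under library totals the Cadict counts were 10 higher and 37 lower, beside 6.93% and 51.5% of all genes. All 17 called lower at TMM scaling were among those 37, and the 10 higher, all among the 28, were Prdx6, Txnrd1, Selenok, Cyb5r1, Aloxe3, Ptges3, Sat1, Hmox1, Fth1 and Ftl1. The other 18 lost the call, and the changes below are at TMM scaling unless library totals are named.

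Removal of superoxide and peroxide was the list with the highest median, 0.987 over 9 genes beside -0.125 for all genes tested. Ccs, the copper chaperone of SOD1, and the peroxiredoxins Prdx1, Prdx4 and Prdx6 rose, and the extracellular dismutase Sod3 fell. Prdx6, which also reduces phospholipid hydroperoxides, went from 138.1 ± 3.5 TMM CPM in Ctrl to 196.8 ± 11.8 in Cu-Cys and 724.8 ± 57.8 in Cadict (SD, n = 3; log2 2.39 with Cadict, edgeR adjusted p = 1.9e-14; 1.44 under library totals), whereas Ccs, Prdx1 and Prdx4 were at 0.08, 0.41 and 0.60 under library totals and not called. Sod3 went from 19.23 ± 1.64 to 6.117 ± 1.14 TMM CPM with Cadict (log2 -1.65, edgeR adjusted p = 1.92e-09; -2.60 under library totals).

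Of the 10 tested sources of superoxide and peroxide, 3 rose with Cadict, Cyba and Aox1 among them, and Acox3 and Ero1b fell. Cyba, the p22phox subunit of NADPH oxidases, changed by log2 1.35 (SE 0.09, edgeR adjusted p = 5.83e-10), which was 0.39 under library totals and not called. Maoa, a mitochondrial monoamine oxidase, had the largest Cu-Cys change among genes of this list at the named level, log2 0.35 (edgeR adjusted p = 0.000171), and with Cadict its 0.61 turned to -0.35 under library totals.

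GPX4 is a selenoprotein, and 15 other genes of selenoprotein supply and selenoproteins were tested. Txnrd1, Selenow, Selenof, Selenok and Selenos rose with Cadict, whereas Sephs2 and Pstk, which make the selenium donor and selenocysteine precursor, fell. Txnrd1, the cytosolic thioredoxin reductase, went from 209.7 ± 2.54 TMM CPM in Ctrl to 358.2 ± 4.37 in Cu-Cys and 3113 ± 234 in Cadict (SD, n = 3; log2 3.89 with Cadict, edgeR adjusted p = 8.57e-17, and 2.94 under library totals; log2 0.77 with Cu-Cys, edgeR adjusted p = 1.13e-07). Selenok changed by log2 2.01 with Cadict (edgeR adjusted p = 4.07e-13; 1.06 under library totals). Lrp8, a receptor for the selenium carrier selenoprotein P, was higher with Cu-Cys (log2 0.85, edgeR adjusted p = 1.82e-07) and lower with Cadict (log2 -0.34, edgeR adjusted p = 0.000338), the latter -1.29 under library totals and then called lower.

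The list of FSP1 and coenzyme Q had the lowest median with Cadict, -0.344 over 18 genes. Coq7 and the N-myristoyltransferases Nmt1 and Nmt2, which attach the lipid that anchors FSP1 to membranes, rose, and 5 fell, Coq3, Coq8a, Coq8b and Coq9 among them. Over all genes tested 20.7% were called higher and 27.1% lower, so these counts lie near the general share. Coq9, a lipid-binding protein of coenzyme Q synthesis, went from 27.3 ± 2.29 to 6.469 ± 1.18 TMM CPM (SD, n = 3; log2 -2.08, edgeR adjusted p = 4.31e-11; -3.03 under library totals). Nqo1, a quinone reductase, was higher with Cu-Cys by log2 0.79 (edgeR adjusted p = 2.24e-07) and with Cadict by 0.96 (edgeR adjusted p = 8.41e-10), the latter 0.00 under library totals.

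Of the 6 other tested genes of tetrahydrobiopterin synthesis and recycling, 2 rose with Cadict, among them Qdpr, which regenerates the cofactor, and Spr, which makes the last step of its synthesis, fell. Spr changed by log2 -1.43 (SE 0.11, edgeR adjusted p = 3.1e-09; -2.38 under library totals). Pts, the enzyme between GCH1 and SPR, was lower with Cu-Cys by log2 -0.37 (edgeR adjusted p = 0.00185), and its 0.33 with Cadict turned to -0.63 under library totals. Spr and Gch1 thus moved in opposite directions with Cadict.

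Polyunsaturated phospholipid synthesis and oxidation held 25 other tested genes, with 5 called in each direction with Cadict and a median of 0.03. The shares over all genes tested were 20.7% higher and 27.1% lower. Elovl5, Por, Cyb5r1, Aloxe3 and Pla2g6 rose, and Lpcat1, Lpcat4, Mboat1, Mboat2 and Gnpat fell. Cyb5r1, which with POR passes electrons from NADPH or NADH to oxygen, changed by log2 2.76 (SE 0.06, edgeR adjusted p = 2.4e-15; 1.80 under library totals). Mboat1, a lysophospholipid acyltransferase of the family of Lpcat3, changed by -2.24 (SE 0.12, edgeR adjusted p = 4.21e-11; -3.19 under library totals). Pla2g6, a phospholipase that releases fatty acids, changed by 1.12 with Cadict (edgeR adjusted p = 1.01e-07; 0.16 under library totals, not called) and by -0.36 with Cu-Cys (edgeR adjusted p = 0.0228).

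The list of prostaglandin synthesis and ferroptosis markers, to which Ptgs2 belongs, had 15 other tested genes and a median of 0.802 with Cadict. Ptges3, Sat1, Slc7a11, Hmox1 and the ferritin genes Fth1 and Ftl1 rose, and Ptges2 fell. Tfrc was lower with Cadict by log2 -0.64 (edgeR adjusted p = 2.49e-08), short of the fold limit. Under library totals it was -1.60 and called lower, and against Cu-Cys it was called lower at -1.27. With 0.05 as the bound and no fold limit, 9 of the 15 were higher and 4 lower against Ctrl, beside 40.6% and 47.1% of all genes. Hmox1, heme oxygenase 1, went from 23.18 ± 1.21 TMM CPM in Ctrl to 108.8 ± 12.2 in Cu-Cys and 18650 ± 854 in Cadict (SD, n = 3), which is log2 9.65 with Cadict (edgeR adjusted p = 5.44e-18; 8.70 under library totals) and 2.23 with Cu-Cys (edgeR adjusted p = 1.22e-10). It was the 1 gene of all 7 lists besides Ptgs2 called with Cu-Cys. Sat1, spermidine acetyltransferase, changed by log2 3.33 with Cadict (SE 0.09, edgeR adjusted p = 1.13e-14; 2.37 under library totals).

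**Figure D4:**
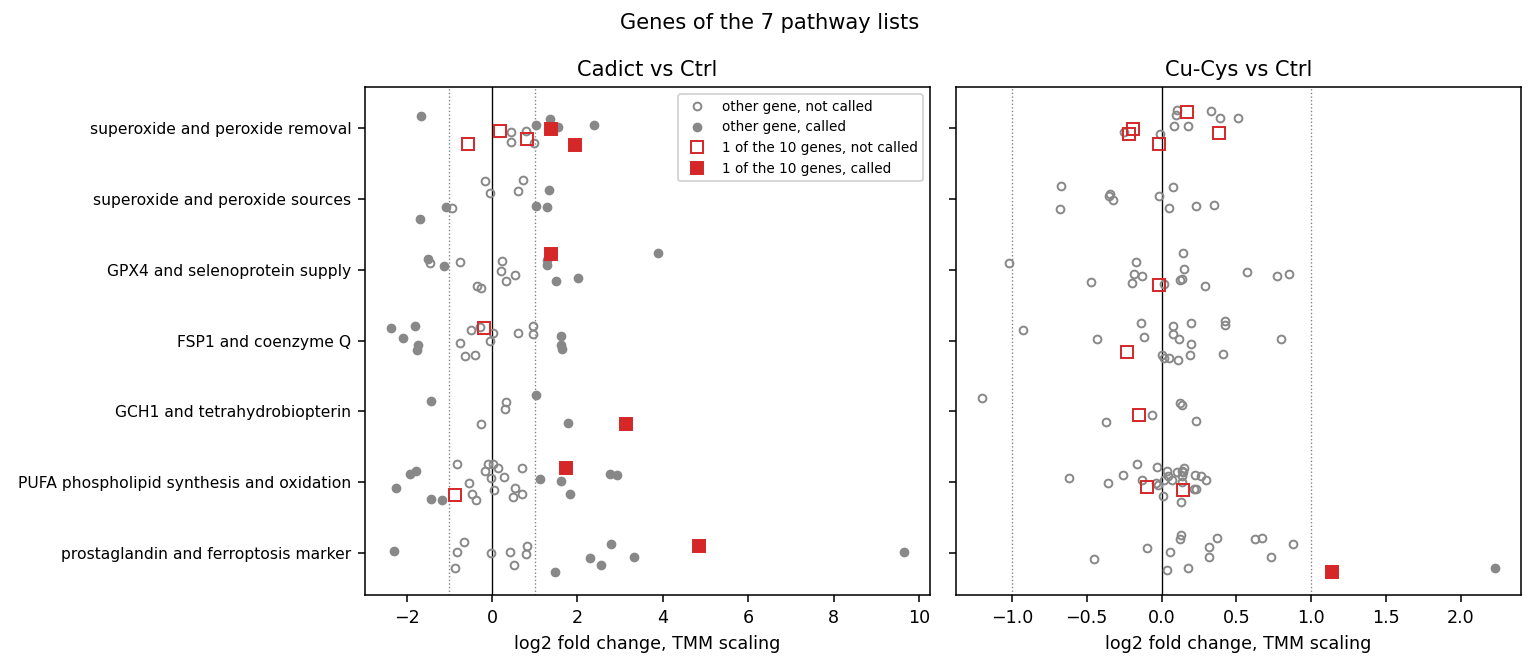
Log2 fold change at TMM scaling (horizontal axes, a separate scale in each panel) of all tested genes of 7 pathway lists for Cadict against Ctrl (left) and Cu-Cys against Ctrl (right); squares are the 10 genes (Gpx4 is in 2 lists), circles the other genes, filled symbols passed the study's threshold, and vertical scatter within a list carries no meaning. With Cu-Cys only Ptgs2, at 1.14, and Hmox1, at 2.23, are filled, whereas with Cadict filled symbols lie on both sides of 0 in every list.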

How the data were processed

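The authors deposited 1 table in which each gene has an expected count, an FPKM and a TPM per library. Per the labels, the processing notes name HISAT2 2.1.0, Bowtie2 2.3.4.3 and RSEM 1.3.1 and the builds GRCm39 and GRCh38.p13 without roles; kit strandedness is not given in the sources used here. The deposited expected counts (unnormalized, 90.2% whole) were rounded and fitted with edgeR 4.0.16 in R 4.3.3 (quasi-likelihood test, filterByExpr, TMM, all 9 libraries in 1 fit, Benjamini-Hochberg over 11949 genes). Columns were matched to groups by name, with CTL, CC and CCGE read as Ctrl, Cu-Cys and Cadict; CCGE fits no other group by its letters. The deposited TPM served for levels, order and ratios, and TPM and the deposited FPKM for limma 3.58.1 on log2(value + pseudocount). Other columns (size-factor-scaled counts, the authors' group means and comparisons) were not used. The 10 genes and the lists were chosen with earlier results of these data known. Besides the 10, each list names its 2 genes with the largest absolute change with Cadict and 1 with Cu-Cys, at an average of at least 10 TMM CPM; further genes are named because they were called, and some genes are not reported here. Coordinates and promoter windows come from RefSeq (GRCm38.p6), shared 50-base stretches from GENCODE on GRCm38. The fit was tested on simulated data. Alternatives were DESeq2 1.42.0, other scalings and filters, a replicate block and leaving out each library.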

Additional observations from a re-analysis of the deposited data

How the results depend on the processing

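The scaling decided most. Members called higher with Cadict numbered 2 in place of 5 under library totals, log2(TPM + 1), log2(TPM + 0.1) and log2(FPKM + 1), against Ctrl and against Cu-Cys alike. Members called lower were 3, 4, 4 and 2 against Ctrl and 2 in each against Cu-Cys, in place of 0; over all genes those 4 settings called 51.5%, 54.2%, 60.3% and 41.5% lower against Ctrl and 47.7%, 48.4%, 55.5% and 37.7% against Cu-Cys. With Cu-Cys against Ctrl, 0 in place of 1 were called higher on both TPM scales. With 0.05 as the bound and no fold limit, 2 were lower with Cadict in each comparison, and 3 were higher and 2 lower with Cu-Cys. Under library totals, the list genes outside the 10 gave 10 calls up and 37 down against Ctrl and 9 and 37 against Cu-Cys. In the same order of 4 settings, the log2 change with Cadict turned to -0.13, -0.47, -0.48 and -0.13 for Sod2 and to -0.76, -1.14, -1.14 and -0.79 for Gpx1 against Ctrl. Against Cu-Cys it turned to -0.23, -0.50, -0.51 and -0.23 for Sod2, to -0.50, -0.80, -0.80 and -0.52 for Gpx1 and to -0.83, -0.74, -0.81 and -0.48 for Aifm2. The Aifm2 value also turned to -0.035 with no filter and to -0.047 without Cadict replicate 2, and leaving out each library gave -0.047 to 0.14. Gpx4 with Cu-Cys, -0.02, turned to 0.0098 with DESeq2 size factors, to 0.0029 without Ctrl replicate 2 and to 0.019 without Cu-Cys replicate 1, with -0.044 to 0.019 over all left-out libraries. The causes were not tested. From counts in place of TPM, the Cadict change in the log2 ratio was 1.56 in place of 1.21 for Gpx4 to Aifm2 and 3.35 in place of 3.02 for Gch1 to Aifm2. Leaving out each library in turn kept 5 members called higher with Cadict and 1 with Cu-Cys. The deviations of same-numbered libraries from their group means had correlations of -0.148 to 0.145 over 9706 genes. With 3 libraries per group these values cannot decide whether same-numbered libraries shared a culture or day, which the labels do not give. With the replicate block the Ptgs2 change with Cadict was 4.85, that of Gpx4 1.38, and no member's call at the 2-fold threshold changed. At the 0.05 bound without a fold limit, Aifm2 with Cu-Cys went from an edgeR adjusted p of 0.0384 to 0.054 under the block and Gpx1 from 0.0509 to 0.0319. Of the values for single genes, 470 kept their direction and side of the threshold, 26 lost and 19 gained a call, and 25 reversed.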
